A study of Homo sapiens with 4 samples.

Results

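ZNF genes code for zinc finger proteins, most of them of the C2H2 type, in which a pair of cysteines and a pair of histidines hold a zinc ion and each finger reads a few bases of DNA. Many also carry a KRAB domain, which recruits the corepressor TRIM28 and with it histone methylation that silences transposable elements. A large part of the family lies in tandem clusters on chromosome 19, where genes arose by duplication, and in C2H2 genes the array of fingers is commonly coded by a single, long last exon followed by a long 3' UTR. The genes described here are the protein-coding genes whose symbol is ZNF and a number, with at least 1 SMD2 peak outside the intergenic class. They comprised 123 genes with 179 of the 9401 peaks of the deposited list. The symbol set the family, and having a peak set which of its genes are described.

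The peaks come from PAR-CLIP, which crosslinks RNA to protein through a modified uridine, in the embryonic kidney line HEK293T. SMD2 belongs to the Sm proteins, which form a ring around the small nuclear RNAs of the spliceosome; it was pulled down with an anti-FLAG antibody in 3 libraries, beside 1 input library. The labels give the same protocol for all 4, with 4-thiouridine at 200 uM over 14 h and crosslinking at 365 nm. They also list 4 h with antibody and 3 h with beads for all 4, the input included. Digestion with RNase T1 was also shared by all 4: it lasted 8 min, its temperature was 22 degrees and the enzyme strength 10 units/ul. The bearing of this digestion on peak width was not tested. A single list was used, with positions, a gene and an annotation class for each peak but no height, strand or value per library: nothing could be set against the input, depth is unknown, and p-values do not measure how libraries vary.

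Of 517 RefSeq protein-coding ZNF genes, 123 held a peak (23.8%, Wilson 95% interval 20.3 to 27.7%) and 394 did not. The 517 include a few joined symbols such as ZNF660-ZNF197 and ZNF559-ZNF177, and symbols that only begin alike, such as ZNF593OS. None of these 3 had a peak assigned. The share over all RefSeq protein-coding genes was 21.4%, inside the interval of the family. Split by chromosome, the ZNF share was above that of other coding genes both on chromosome 19 (19.2% against 12.7%) and elsewhere (28.1% against 21.9%). Of 4285 other coding genes with a peak, only the 4176 whose symbol matched RefSeq were counted. On chromosome 19 these were 152 of 164, whereas all ZNF genes with a peak matched. The shares of other genes are thus somewhat too low, and their intervals lay close to those of ZNF genes. No test was made of these shares. With at least 2 peaks, 35 ZNF genes remained (6.77%, interval 4.91 to 9.27%), against 7.26% over all protein-coding genes. A single peak was found in 88 of the 123 genes, 2 peaks in 23, 3 in 6, 4 in 3 and 5 in 3. The highest number in another protein-coding gene was 11. The list holds no expression values, so whether the 394 genes without a peak were transcribed in these cells was not tested.

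The ZNF peaks were about as narrow as those of other coding genes. A ZNF peak had a median width of 23 nt (quartiles 20 and 30 nt), and the median over 6707 peaks of other protein-coding genes was 24 nt (20 to 31 nt). The widest, 88 nt, lay in the 3' UTR of ZNF655 at chr7:99575510-99575597 (hg38), and the narrowest was 1 nt. In 6 genes peaks abutted, which made 7 pairs, and merging peaks within 50 nt left 172 of the 179.

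The ZNF peaks lay in introns less often, and in 3' UTRs and other exons more often, than the peaks of other protein-coding genes. Introns held 74 of the 179 ZNF peaks, or 41.3% (34.4 to 48.7%), against 62.2% (61.0 to 63.4%) of the other 6707 peaks. The difference was -20.9 percentage points (Newcombe 95% interval -27.9 to -13.5; two-sided Fisher exact test, adjusted p = 1.95e-07 over 6 classes). The 3' UTR share was 24.6% (18.9 to 31.4%) against 14.6% (13.8 to 15.5%), a difference of 10.0 points (4.21 to 16.9; exact adjusted p = 0.00171). The share of other exons was 17.3% (12.5 to 23.5%) against 9.99% (9.30 to 10.7%), a difference of 7.33 points (2.43 to 13.6; exact adjusted p = 0.00714). The 3' UTR, exon and 5' UTR labels together held 77 ZNF peaks (43.0%, 36.0 to 50.3%) and 25.4% (24.4 to 26.5%) of the others.

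No difference passed the test in the smaller classes. Promoter labels made up 10.6% of ZNF peaks and 8.65% of the others, a difference of 1.97 points (-1.81 to 7.37; exact adjusted p = 0.416). Termination sites held 5.03% and 3.76%, a difference of 1.27 points (-1.14 to 5.54; exact adjusted p = 0.416), and 5' UTRs 1.12% and 0.820% (-0.550 to 3.17 points; exact adjusted p = 0.660). Several peaks can share a gene. With only the widest peak of each gene, the intronic difference still passed (42.3% of 123 against 58.5%, exact adjusted p = 0.00242), but the 3' UTR difference (24.4% against 16.2%, exact adjusted p = 0.0765) and the exon difference (15.4% against 10.2%, exact adjusted p = 0.142) did not. Without ZNF292, ZNF24, ZNF565, ZNF431 and ZNF629 the exon share was 14.1% of 156 and no longer passed (exact adjusted p = 0.210). These 5 had the most peaks, with ZNF195 tied on number and set behind them by summed width.

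**Figure D1:**
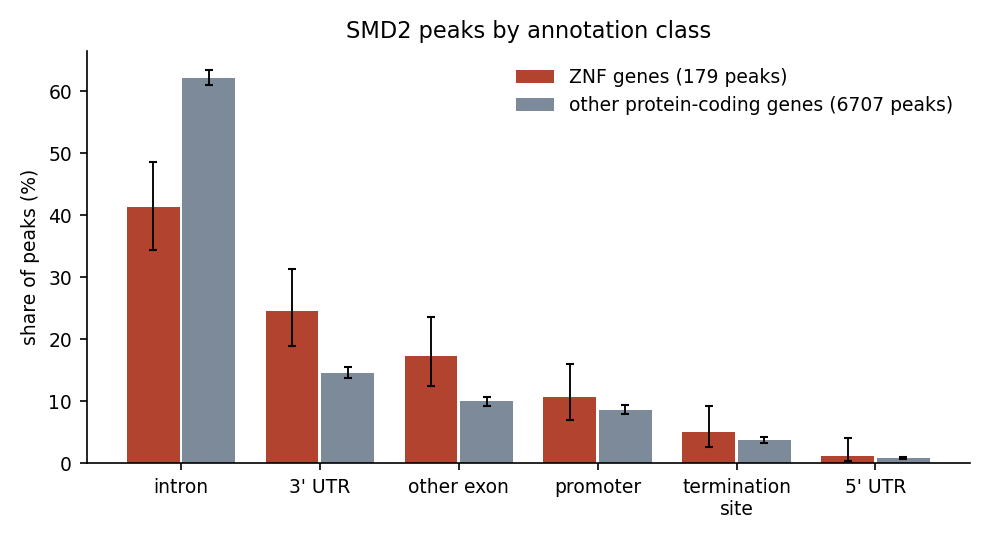
Bars give the share of peaks in each annotation class (%) for ZNF genes and for other protein-coding genes, with Wilson 95% intervals. The ZNF bar is lower for introns (41.3% against 62.2%) and higher for 3' UTRs and other exons.

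The intronic peaks were the largest group and were spread over 59 genes. ZNF565, a KRAB zinc finger gene on chromosome 19, had 4 intronic peaks between positions 36221593 and 36233898 and 1 termination-site peak at 36238730 to 36238753. The termination-site peak lay at 11.25% of the ZNF565 span, 56682 nt from the end of that gene. It was close to the boundary of the neighbouring gene ZNF146 at 36238768, so its label did not mark the end of ZNF565. All 5 peaks also lay inside the span of ZNF146, and without strand in the list the 2 genes could not be told apart. ZNF195 had 4 intronic peaks between 3362294 and 3374936 on chromosome 11, of which 2 abutted, so that 3 remained after merging.

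ZNF536, a regulator of neuronal differentiation, had 3 intronic peaks in a gene of 487995 nt. They lay at 2.91%, 4.14% and 53.7% of the gene span, counted from its start. ZNF292, a large gene linked to intellectual disability, had 2 intronic peaks at 87158481 to 87158512 and 87245468 to 87245498 on chromosome 6 and 3 peaks labelled as other exon near the gene end. ZNF138 and ZNF678, both KRAB zinc finger genes, had 2 intronic peaks and 1 peak in the 3' UTR each. Among members with 1 intronic peak, chosen here after their peaks were seen, were ZNF274, which brings the histone methyltransferase SETDB1 to its targets, ZNF445, which maintains imprinted methylation, and ZNF217, an oncogene of breast cancer.

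The 3' UTR group held 44 peaks of 35 genes. ZNF431, a KRAB gene of the cluster near the chromosome 19 centromere, had 3 of its 4 peaks there, at 21183863 to 21183895, 21185870 to 21185892 and 21189968 to 21190023. They lay at 77.5% to 88.8% of the gene span. ZNF562 had all 3 of its peaks in the 3' UTR, 2 of them abutting at 9648750 to 9648775. ZNF714 and ZNF234 on chromosome 19, ZNF326 on chromosome 1 and ZNF300 on chromosome 5 had 2 each, and those of ZNF300 abutted.

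ZNF326 is part of a complex that links splicing to elongation by RNA polymerase II. Its peaks lay at 26.4% and 83.3% of the gene span, so the 3' UTR label did not always mark the end of the gene. The same label fell at 20.9% of the span in ZNF451, a SUMO ligase. Over 41 ZNF 3' UTR peaks with a known strand the median position was 83.8% of the span, and over 778 such peaks of other coding genes 95.6%.

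The exon group held 31 peaks of 24 genes. ZNF24, a gene with a SCAN domain in place of KRAB, had 3 exon peaks that abutted between 35340366 and 35340438 on chromosome 18 and 2 peaks in the 3' UTR, at 35333184 to 35333215 and 35337528 to 35337546. Merging left 3 peaks in the gene. ZNF629, in a span of only 8750 nt on chromosome 16, had 3 separate exon peaks between 30781844 and 30783272 and 1 peak in the 3' UTR. The 3 exon peaks of ZNF292 lay between 87257409 and 87258799, at 92.3% to 93.5% of the span. ZNF518A had 2 exon peaks at 96158228 to 96158250 and 96160071 to 96160105 on chromosome 10 and 1 intronic peak. These 4 genes contributed 11 of the 31 exon peaks. The median position of exon peaks was 76.9% of the span in ZNF genes (30 peaks) and 63.2% in other coding genes (552 peaks).

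**Figure D2:**
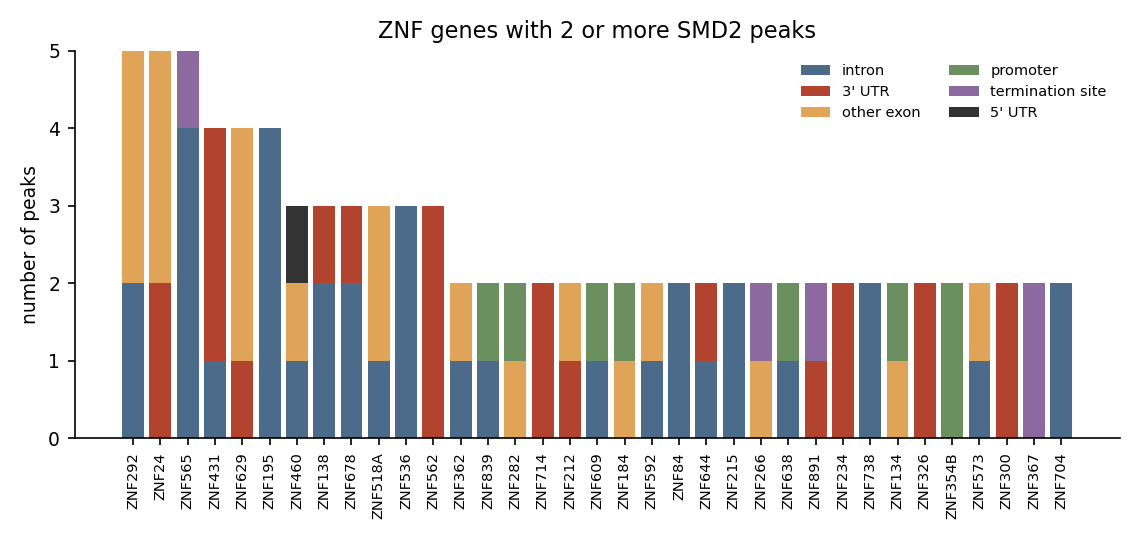
Stacked bars give the number of peaks of each of the 35 ZNF genes with 2 or more, coloured by annotation class. ZNF292, ZNF24 and ZNF565 have 5 each, and 13 of the 35 genes have all their peaks in 1 class.

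The promoter group held 19 peaks of 18 genes, and most did not lie at the start of the gene. For 18 of these peaks a start site was listed in the RefSeq promoter table. Their median signed distance from the nearest listed start was 10853 nt downstream, and 3 lay within 1000 nt of one. ZNF354B had 2 promoter peaks at 91.5% and 92.9% of its span. Those of ZNF530 and ZNF135 lay 23.5 and 86 nt from the gene end. The class was therefore not read as the first bases of the gene.

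A single promoter peak reached a RefSeq promoter window, that of ZNF358 at chr19:7516141-7516184 on hg38. Its centre lay 59.5 nt downstream of the start site at 7516103. The window is shown because no other promoter peak of a ZNF gene overlapped the window of its own gene. It runs from 250 nt before to 50 nt after the start on the plus strand (GRCh38.p14, RefSeq, chr19:7515853-7516152), and capitals mark the 12 bases under the peak, bases 289 to 300 of the window. Its GC content was 76.3%, against a median of 61.3% over 563 windows of ZNF genes (interquartile range 56.2 to 67.0%). The peak also lay in the span of a long noncoding RNA, LOC105372261.
ZNF358: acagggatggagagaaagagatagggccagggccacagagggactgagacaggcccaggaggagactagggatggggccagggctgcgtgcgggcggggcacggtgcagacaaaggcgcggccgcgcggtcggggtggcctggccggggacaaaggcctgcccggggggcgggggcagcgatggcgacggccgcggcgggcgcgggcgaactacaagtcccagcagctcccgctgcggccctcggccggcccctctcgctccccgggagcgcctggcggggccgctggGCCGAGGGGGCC

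The remaining classes were small. Termination sites held 9 peaks of 8 genes: ZNF367 with an abutting pair, and ZNF266, ZNF449, ZNF565, ZNF641, ZNF675, ZNF771 and ZNF891 with 1 each. The 5' UTR class held 1 peak in ZNF460, at 57280702 to 57280763 on chromosome 19, and 1 in ZNF518B, a relative of ZNF518A. ZNF460 also had an intronic and an exon peak, so its 3 peaks carried 3 labels.

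A few members are known for roles other than that of a transcription factor; they were chosen after their peaks were seen. ZNF598, the ligase that marks collided ribosomes, had 1 intronic peak. ZNF346, which binds double-stranded RNA, had 1 intronic peak at 4.80% of its span. ZNF207, a kinetochore protein that binds BUB3, had 1 peak in the 3' UTR. ZNF638, which silences unintegrated retroviral DNA, had 1 intronic and 1 promoter peak, and ZNF609, the source of a well-known circular RNA, likewise had 1 of each.

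ZNF genes with a peak were shorter than other such genes. Their median RefSeq span was 25.8 kb (interquartile range 17.9 to 57.6 kb, 123 genes), against 56.3 kb (24.9 to 127 kb) for 4175 other coding genes with a peak. Over all RefSeq genes, peak or not, the medians were close, 23.7 kb for ZNF genes and 24.1 kb for the others. Per 100 kb of the summed span of all genes, in which long genes weigh most, ZNF genes held 0.810 peaks and other coding genes 0.504. Only peaks inside a matched RefSeq span were counted, 174 of 179 and 6419 of 6707. The class shares were therefore also set side by side within quartiles of the spans of the 123 genes.

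At like span the differences held in some quartiles only. In the shortest, 4.24 to 17.9 kb, 16.3% of 43 ZNF peaks were intronic against 34.0% of 804 others (exact adjusted p = 0.110 over 24 tests), and 32.6% against 15.05% lay in other exons (exact adjusted p = 0.0379). Of the 14 ZNF exon peaks in that quartile, ZNF24 and ZNF629 held 3 each, and those of ZNF24 abutted. In the third, 25.8 to 57.6 kb, 31.7% of 41 ZNF peaks were intronic against 56.0% of 1508 (exact adjusted p = 0.0274), and 43.9% against 19.03% lay in 3' UTRs (exact adjusted p = 0.00974). Of the 18 ZNF 3' UTR peaks there, ZNF431 and ZNF562 held 3 each. The tests treat peaks of the same gene as separate, and no quartile was tested with 1 peak per gene. In the second quartile the intronic shares were 50.0% and 48.5%, with a difference of 1.49 points (-14.1 to 17.1; exact adjusted p = 1). In the longest they were 61.8% and 72.8% (exact adjusted p = 0.369), and the exon shares were 18.2% and 8.33%, a difference of 9.85 points (1.80 to 22.03; exact adjusted p = 0.110). With both middle quartiles pooled, 40.7% of 81 ZNF peaks were intronic against 54.5% of others (exact adjusted p = 0.0504), 32.1% against 18.9% lay in 3' UTRs (exact adjusted p = 0.0359), and the exon shares turned the other way, 8.64% against 11.9%. The length of introns, exons and UTRs in each gene was not used here, so the part of gene structure in these differences was not tested.

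**Figure D3:**
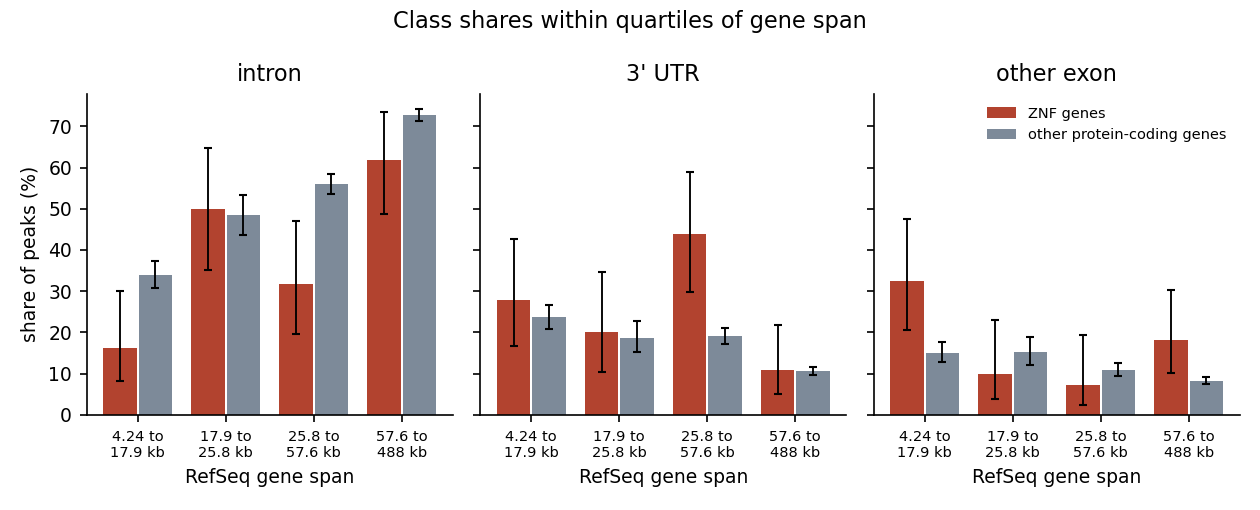
Bars give the share of peaks (%) labelled intron, 3' UTR and other exon in 4 groups of genes by RefSeq span, with Wilson 95% intervals. ZNF and other coding genes differ most for introns and 3' UTRs in the third group, with intronic shares of 31.7% and 56.0%, and little in the second.

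The share of other coding genes with a peak rose with span from quartile to quartile, while that of ZNF genes did not rise steadily. The quartiles were drawn from the ZNF genes with a peak, which fixes their number at 30 or 31 in each. In the shortest quartile 31 of 163 ZNF genes held a peak (19.02%, 13.7 to 25.7%) against 11.9% (11.04 to 12.7%) of other coding genes, and in the second 28.7% (21.0 to 37.9%) against 17.8% (16.1 to 19.7%). In the third the order was the opposite, 19.6% (14.1 to 26.6%) against 26.1% (24.7 to 27.5%), and in the longest the shares were 37.8% and 36.9%. No test was made of these shares.

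Along the gene, ZNF peaks leaned to the end much as other peaks did. Of 162 ZNF peaks inside the span of a gene with known strand, the median lay at 64.2% of the span (interquartile range 33.6 to 89.0%), and of 5446 other coding peaks at 58.8% (28.3 to 85.6%). The last of 10 equal stretches of the span held 22.8% (17.1 to 29.9%) of ZNF peaks and 20.1% (19.01 to 21.1%) of the others, and the first stretch 5.56% (2.95 to 10.2%) and 8.94% (8.21 to 9.73%). The intervals overlapped at both ends.

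**Figure D4:**
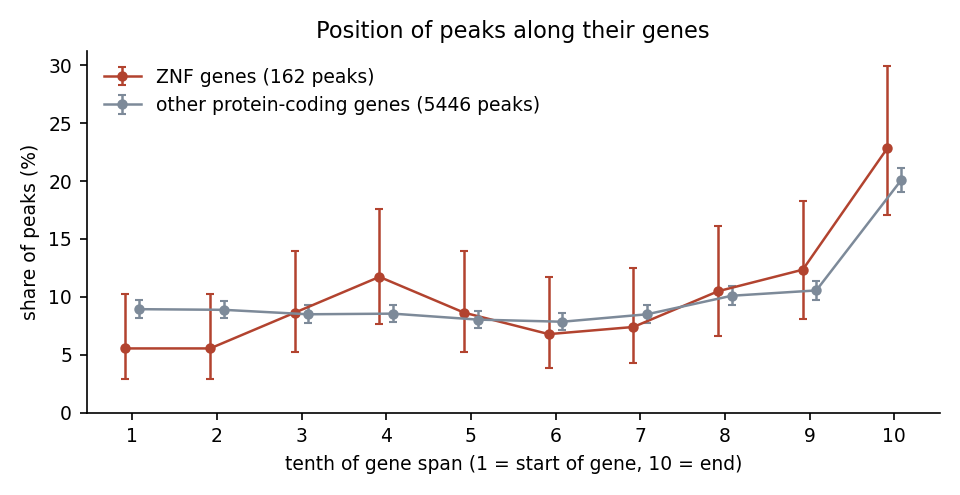
Points give the share of peaks (%) in each of 10 equal stretches of the gene span from start to end, with Wilson 95% intervals, for 162 ZNF peaks and 5446 peaks of other coding genes. Both are highest in the last stretch, at 22.8% and 20.1%.

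Chromosome 19 held 67 of the 179 ZNF peaks (37.4%) and 48 of the 123 genes (39.0%), whereas 48.4% of all RefSeq ZNF genes lie there. Of 250 ZNF genes on chromosome 19, 19.2% (14.8 to 24.5%) held a peak, against 28.1% (23.0 to 33.8%) of 267 on other chromosomes. The other coding genes had the same order, with 12.7% (10.9 to 14.7%) of 1201 genes on chromosome 19 and 21.9% (21.4 to 22.6%) of 18338 elsewhere, each below the ZNF share. The pooled ZNF share of 23.8% thus averages over a chromosome that holds 48.4% of ZNF genes and 6.15% of other coding genes. Chromosome 7 followed with 18 ZNF peaks in 14 of 35 genes, and chromosome 1 with 12 peaks in 7 of 21. Among them, ZNF107, ZNF117, ZNF138, ZNF273, ZNF680 and ZNF92 lay in 1 stretch of chromosome 7 between 64535285 and 65399107.

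The annotation classes of chromosome 19 ZNF peaks did not differ detectably from those of ZNF peaks elsewhere. Introns held 43.3% of 67 and 40.2% of 112, a difference of 3.10 points (-11.4 to 17.8; exact adjusted p = 1). The 3' UTR shares were 26.9% and 23.2% (-8.92 to 17.2 points; exact adjusted p = 1) and the exon shares 11.9% and 20.5% (-18.8 to 3.21 points; exact adjusted p = 0.9499). The intervals are wide, so sizeable differences were not detectable with this number of peaks.

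The comparison group changed the result. Against the 203 peaks of other coding genes on chromosome 19, the shares of all 179 ZNF peaks no longer differed by the test for introns (41.3% against 47.3%, exact adjusted p = 0.387) or exons (17.3% against 17.2%, exact adjusted p = 1), while that for 3' UTRs did (24.6% against 13.3%, exact adjusted p = 0.0333). On chromosome 19 the peaks of other coding genes were themselves less intronic, 47.3% of 203, and the ZNF share of 43.3% differed from it by -4.01 points (-17.1 to 9.68; exact adjusted p = 0.576). There the 3' UTR share was 26.9% against 13.3% (exact adjusted p = 0.0821). Away from chromosome 19, 40.2% of ZNF peaks and 62.7% of others were intronic (exact adjusted p = 1.57e-05), 20.5% against 9.76% lay in other exons (exact adjusted p = 0.00191) and 23.2% against 14.6% in 3' UTRs (exact adjusted p = 0.0303). Whether the differences themselves differ between chromosome 19 and the rest was not tested.

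The chromosome 19 genes fell into 10 clusters, chains of at least 5 RefSeq ZNF genes with gaps of at most 500 kb, which held 236 genes, 45 of them with a peak. The cluster from ZNF264 to ZNF446, at the end of the long arm, had 9 of 43 genes with a peak (20.9%, 11.4 to 35.2%), led by ZNF460 with 3 peaks and ZNF134 with 2. The cluster from ZNF565 to ZNF573 had 8 of 26 (30.8%, 16.5 to 50.0%) and 13 peaks, 9 of them intronic, led by ZNF565 and ZNF573. All 5 peaks of ZNF565 also lay in ZNF146. Of the 2 peaks of ZNF573, that at 37792501 to 37792516 lay outside its RefSeq span, over a long noncoding RNA and a pseudogene. The cluster from ZNF575 to ZNF180 had 7 of 23, with 2 peaks in ZNF234 and 1 in ZNF45. That from ZNF101 to ZNF254 had 6 of 37 genes and 11 peaks, 6 of them in 3' UTRs, led by ZNF431 with 4, and by ZNF714 and ZNF738 with 2 each, those of ZNF738 both intronic.

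Peaks were fewer in other clusters. The cluster from ZNF175 to ZNF331 had 7 of 41 genes, each with 1 peak, ZNF331 and ZNF175 among them. That from ZNF414 to ZNF846 had 4 of 14, led by ZNF562 with 3 peaks and ZNF266 with 2, and that from ZNF302 to ZNF792 had 2 of 5, ZNF599 and ZNF30. The cluster from ZNF653 to ZNF791 had 1 of 25 genes (4.00%, 0.710 to 19.5%), ZNF44, and that from ZNF628 to ZNF835 had 1 of 17, ZNF582. The 5 genes from ZNF554 to ZNF77 held none. The intervals of any pair of clusters overlapped. Genes within a cluster are related in sequence, and how reads that match several of them were assigned is not given in the sources used here, so a peak may belong to a close relative of the gene named.

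**Figure D5:**
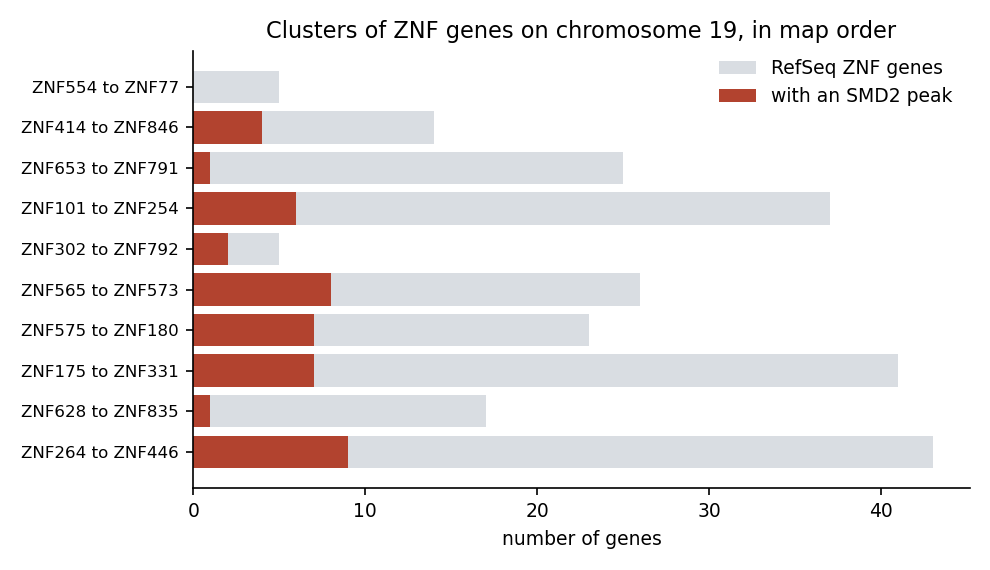
Bars give, for each of 10 chromosome 19 clusters in map order, the number of RefSeq ZNF genes and the number with a peak. The share ranges from 0 of 5 genes (ZNF554 to ZNF77) to 2 of 5 (ZNF302 to ZNF792).

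Some ZNF peaks lay over another gene as well. Of the 179, 24 in 18 genes overlapped the RefSeq span of a second symbol (13.4%), against 10.9% of the other coding peaks. In ZNF117, ZNF177, ZNF286A, ZNF765 and ZNF816 this was a joined symbol that includes the ZNF gene itself, such as ZNF559-ZNF177. Joined symbols were not set apart in either share, so these shares overstate overlap with a separate gene. With joined symbols included, the second symbol was protein-coding for 12 of the 24 and a long noncoding RNA for 8. The promoter peak of ZNF674 lay on a U6 snRNA pseudogene (RNU6-50P) inside the gene, and without strand the pair cannot be told apart. The promoter peak of ZNF839 lay on a tRNA gene (TRI-AAT5-4) and the termination-site peak of ZNF675 on a ribosomal protein pseudogene (RPS27P29), both outside the RefSeq span of the ZNF gene named. In all, 174 of the 179 peaks had their centre inside the RefSeq span of their gene.

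Genes of the KRAB repressor machinery and of chromatin silencing more broadly were counted for comparison, from a list of 20. Of these, 13 held a peak (65.0%, 43.3 to 81.9%), against 21.4% of all protein-coding genes, with 31 peaks, of which 20 were intronic and 7 lay in 3' UTRs. ATRX, a chromatin remodeller that deposits histone H3.3, had 6 intronic peaks and ATF7IP, the partner of SETDB1, 3 intronic and 2 in the 3' UTR. TASOR, of the HUSH silencing complex, had 4 intronic peaks, and DNMT1, the maintenance DNA methyltransferase, 2 intronic and 1 exon peak. CBX5, which codes for heterochromatin protein HP1 alpha, had 2 peaks in the 3' UTR. TRIM28 itself, the corepressor that KRAB domains bind, held none, while SETDB1 had 1. The others without a peak were CBX1, CHD4, HDAC1, MPHOSPH8, DAXX and SMARCAD1. The list was not matched for span and no test was made of it.

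Genes with related symbols were counted as well. Of 91 genes named ZFP, ZSCAN, ZKSCAN or ZBTB and a number, 28 held a peak (30.8%, 22.2 to 40.9%), against 21.4% of all protein-coding genes, with 33 peaks. Introns held 39.4% (24.7 to 56.3%) of these and 3' UTRs 39.4%. ZBTB44 had 3 peaks and ZBTB11, ZFP64 and ZSCAN9 had 2 each. The pattern of symbols also takes in ZFP36, ZFP36L1 and ZFP36L2, RNA-binding proteins of another zinc finger class, with 1 peak each, and ZBTB8OS and ZFP91-CNTF, whose symbols only begin alike, also with 1 each.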

How the data were processed

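Per the submitters' processing notes, reads were handled with Trim Galore 0.6.10 and Bowtie2 2.5.1 on build hg38. How peaks were called, at what threshold, with or without the input and on pooled or single libraries is not given in the sources used here. The authors deposited 9401 peak positions, counted from 0 at the start and printed here from 1. Groups came from the sample titles. Gene spans and gene names came from the RefSeq gene table of GRCh38.p14, joined by symbol and chromosome. All 179 ZNF peaks and 6556 of the 6707 peaks of other coding genes matched. Strands came from its promoter table (113 of 123 genes). Class shares were compared by two-sided Fisher exact tests with Benjamini-Hochberg adjustment, over 6 classes or, by span, over 24 tests; the threshold was an adjusted p of 0.05. Members, lists and tests were chosen with earlier results of these data known, and the tests by span quartile and by chromosome were added after the first comparison. The genes named are those with 3 or more peaks, the leading genes of each class and cluster, genes with nearby peaks and list members with a peak; others serve to account for a class, or are said to be chosen after their peaks were seen. The tests ran in scipy 1.17.1 under Python 3.11.15. They were tried on simulated lists in which each peak was drawn on its own, so the sharing of a gene by several peaks was not covered. Tables were handled in pandas 2.3.3 with numpy 2.4.6, and figures drawn in matplotlib 3.10.9.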

Additional observations from a re-analysis of the deposited data

Results flagged for a closer look

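Outside the comparisons above, 9 intergenic peaks were assigned to 8 ZNF protein-coding genes, 4 of which also held a peak in another class (ZNF451, ZNF543, ZNF629 and ZNF703). That of ZNF543 lay 2324 nt outside the RefSeq span, and those of ZNF182 lay 43028 and 44924 nt outside it. The intergenic peak of ZNF469 lay inside its span. A further 20 peaks were assigned to 15 ZNF symbols of noncoding gene types, with 5 in ZNF767P. Of these 20 peaks, 14 carried the long noncoding RNA type. No control level was available for these peaks.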

How the results depend on the processing

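Of 85 values under alternatives, 72 kept their direction and side of the threshold, or a count within 1.5 times. The 85 include promoters, termination sites, 5' UTRs and all classes between chromosome 19 and other ZNF peaks, none of which passed at first. The count of 72 is therefore no measure of how firm the differences that passed are. Odds ratios of ZNF against other coding peaks were 0.428 for introns, 1.91 for 3' UTRs, 1.89 for other exons, 1.25 for promoters, 1.36 for termination sites and 1.37 for 5' UTRs. With 1 peak per gene, those of 3' UTRs (1.66) and exons (1.60) no longer passed. All 179 ZNF peaks, on any chromosome, were also set against only the 203 other coding peaks of chromosome 19. There introns (0.786) and exons (1.005) did not pass, and promoters (0.659) and termination sites (0.715) reversed. The 5' UTR class gave no odds ratio, since no other peak of chromosome 19 had that label. Within chromosome 19 (67 against 203 peaks) the intronic odds ratio was 0.851, and away from it (112 against 6504 peaks) 0.400. Without the 5 genes with most peaks (ZNF292, ZNF24, ZNF565, ZNF431 and ZNF629), exons (1.48) did not pass. At spans within the member quartiles, added after seeing the data, introns (0.575) did not pass and exons (0.701) and 5' UTRs (0.872) reversed. Between chromosome 19 and other ZNF peaks, introns (1.14) reversed with 1 peak per gene (0.960) and without the 5 genes (0.903), and no class passed. Of the 123 genes, 35 had at least 2 peaks. The cause of these changes was not tested. No paired analysis was possible because the list has no value per library, and for that reason no library could be left out.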
